A study of Mus musculus with 2 samples.

Results

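Tissue inhibitors of metalloproteinases were followed in mouse heart tissue after myocardial infarction. The group comprises 5 genes, the secreted inhibitors Timp1, Timp2, Timp3 and Timp4 and the membrane inhibitor Reck, of 24346 genes listed in each library. They were taken by symbol, and the choice was prompted by opposite differences of Timp1 and Timp4 between the libraries, so the differences of all members are given as a description. One sample was heart tissue treated with probucol, a cholesterol-lowering antioxidant drug, and the other was untreated heart tissue. Both carry the label HFD-MI, read as high-fat diet and, by the series title, myocardial infarction, and the age label day 14, whose starting event is not stated. There was 1 library per group, so differences lack a replicate check and every value describes these libraries. The labels do not give genotype, strain, the part of the heart taken or any pooling of animals. Abbreviations in the headers of the deposited files, which the labels do not explain, could name a genotype and a tissue or cell type, and were not interpreted.

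TIMP proteins occupy the active site of matrix metalloproteinases (MMPs), the zinc enzymes that cut collagen and other matrix proteins. Timp1 is the inducible member, raised by inflammatory cytokines and in injured tissue, whereas Timp2 is made broadly and also takes part in the activation of Mmp2 by the membrane protease Mmp14. Timp3 binds to the extracellular matrix and inhibits ADAM and ADAMTS proteases as well, and Timp4 is a member known for its high level in the heart. Reck is anchored in the cell membrane, restrains several MMPs and serves as a co-receptor for Wnt7 ligands.

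In the mouse genome (GRCm38, GENCODE M21) the members lie on separate chromosomes. Timp1 is at chrX:20870166-20874735 on the plus strand, inside the synapsin gene Syn1 on the other strand, and shares 0 exon bases with it. Timp3 is at chr10:86300372-86349506, plus strand, inside Syn3, and Timp4 at chr6:115241892-115252205, minus strand, inside Syn2. Annotated exons of these pairs share 1733 bases for Timp3 and 90 bases for Timp4. The synapsins were low, with 0.453 FPKM for Syn1 and 0.139 for Syn3 in the probucol sample, against 0.857 and 0.141 FPKM in the untreated sample. Syn2 had just over 1 FPKM in the probucol sample against 0.738 FPKM in the untreated sample. FPKM are fragments per kilobase of transcript, scaled by the authors to the mapped fragments. The sources used here do not say whether reads were counted by strand, so reads of overlapping exons may have been split. Timp2 is at chr11:118301069-118355740, minus strand, and holds the gene Cep295nl, whose values were not analysed here. Reck is at chr4:43875530-43944806, plus strand.

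The 250 bases before the start sites of Timp1 and Timp4 are shown because these genes had the largest differences, in opposite directions (RefSeq, GRCm38.p6, chrX:20869916-20870165 on the plus strand and chr6:115252206-115252455 on the minus strand). Capitals mark the Sp1 box GGGCGG on either strand.
Timp1: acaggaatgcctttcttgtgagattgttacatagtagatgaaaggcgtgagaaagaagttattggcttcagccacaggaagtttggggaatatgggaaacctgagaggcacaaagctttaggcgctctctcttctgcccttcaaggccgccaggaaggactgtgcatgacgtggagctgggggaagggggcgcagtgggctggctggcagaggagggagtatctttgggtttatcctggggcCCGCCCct
Timp4: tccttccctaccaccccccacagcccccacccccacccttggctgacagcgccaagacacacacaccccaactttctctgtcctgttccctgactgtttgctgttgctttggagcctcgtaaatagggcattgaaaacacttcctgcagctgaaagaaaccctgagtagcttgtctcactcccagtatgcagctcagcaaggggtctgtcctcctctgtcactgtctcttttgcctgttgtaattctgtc
RefSeq promoter windows of 250 bases before and 50 bases after the start were matched for all 5 members and searched on both strands for 6 motifs. These were the AP-1 site TGANTCA, its variant TGAGTAA, the STAT site TTCNNNGAA, the Sp1 box GGGCGG, the Runx site TGTGGT and the TATA box TATAAA. No motif overlapped another. The Sp1 box, held by 35.7% of 32851 promoter windows of the same length, was found 8 bases before the start of Timp1 (position -8), at 1 place in Timp2, 2 in Timp3 and 3 in Reck, but not in Timp4. TGAGTAA, held by 2.68% of the windows, was found only in Timp1 among the members, starting at base 27 of the transcript. The AP-1 site, STAT site, Runx site and TATA box, held by 7.81%, 8.30%, 16.8% and 13.6% of windows, were not found in these windows of the members. The 250 bases of Timp4 held 2 CpG dinucleotides and those of Timp1 held 6, beside 21 in Timp2, 18 in Timp3, 19 in Reck and a median of 6 over all windows. GC content was 53.6% in Timp4 and 54.4% in Timp1, and between 65.6% and 68.4% in the other members. The median GC content over all windows was 52.4%, near the values of Timp1 and Timp4. A match or its absence is a description of the letters in a window.

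Per kb of effective transcript length 1 FPKM amounted to an estimated 6.70 fragments for probucol and 7.47 for untreated. These numbers stand for the depth of the libraries only if FPKM were scaled to the mapped fragments. Differences are log2((FPKM probucol + 0.5)/(FPKM untreated + 0.5)), called log2 ratio below, over 12882 genes with a mean of at least 0.5 FPKM. Of these genes, 5.14% were lower by 2-fold or more in the probucol sample and 1.07% higher by 2-fold or more. Lower by 1.5-fold or more were 12.0%, and higher by 1.5-fold or more 5.52%. Of the 2-fold calls 82.8% were lower, and 96.9% when ratios were centred on cardiomyocyte markers. The median of all tested genes was 0.01. Markers of the labelled tissue were present: all 12 cardiomyocyte markers were measured, with summed levels of 73446 FPKM in the probucol sample and 53011 FPKM in the untreated sample.

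All 5 members passed the filter on low values. By the 2-fold limit, 1 was lower (Timp1) and 1 higher (Timp4), and by the 1.5-fold limit 2 were lower, Timp1 and Timp2. Because the members were chosen on this contrast, nothing is read from these counts against the background.

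**Figure D1:**
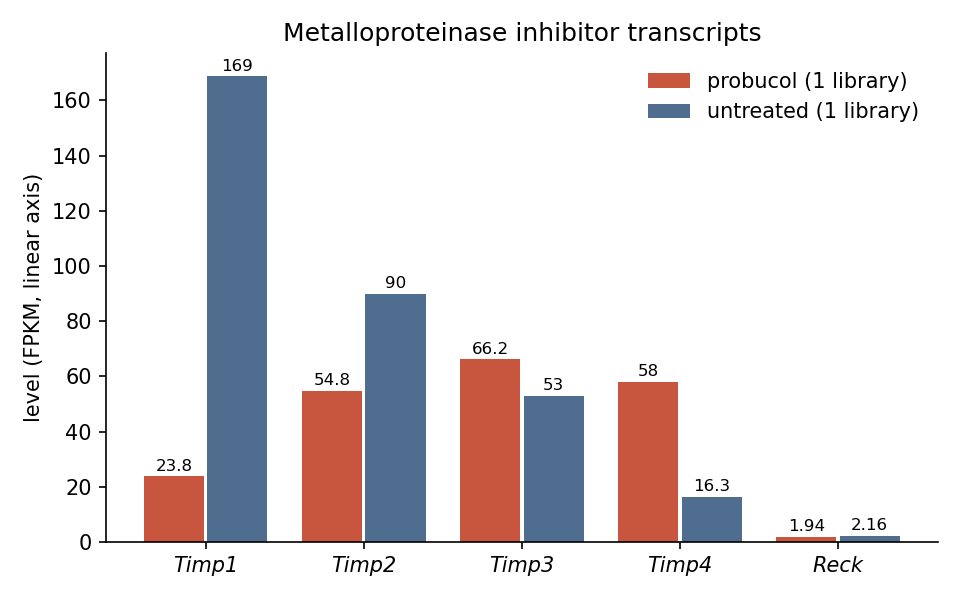
Level in FPKM (linear axis) of the 5 inhibitors in the probucol sample (left bar of each pair) and the untreated sample (right bar), 1 library each and therefore without error bars. Timp1 is the highest of the 5 in the untreated sample at 169 FPKM and the lowest of the 4 Timp genes in the probucol sample at 23.8 FPKM.

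Timp1, the inducible inhibitor, had 23.8 FPKM in the probucol sample against 169 FPKM in the untreated sample. The log2 ratio was -2.80, a 6.98-fold lower level, and 26 of the 12882 tested genes had a lower ratio. With a transcript of 883 bases, these levels stand for an estimated 107 fragments with probucol against 849 in untreated tissue. Counting error alone gives a level between 5.81 and 8.78-fold lower in the probucol sample (exact binomial 95% interval, no pseudocount). Among all genes of the files Timp1 ranked 3115 by level in the probucol sample and 543 in the untreated sample. Fewer cells of a type and less RNA per cell cannot be told apart in bulk tissue, here or in any result below.

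Timp4, known for its level in the heart, had 58.0 FPKM in the probucol sample against 16.3 FPKM in the untreated sample. The log2 ratio was 1.80, a 3.48-fold higher level, and 39 tested genes had a higher ratio. Its rank by level was 1444 in the probucol sample and 4126 in the untreated sample. The fragment number depends on which transcript is assumed: 286 fragments with probucol against 90 untreated for a transcript of 945 bases, and 2054 with probucol against 644 untreated for one of 5496 bases. The wider interval, from the shorter transcript, runs from 2.79 to 4.54-fold higher by counting error.

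Timp2, the broadly expressed inhibitor, had 54.8 FPKM in the probucol sample against 90.0 FPKM in the untreated sample, a log2 ratio of -0.71. Its 1285 fragments with probucol against 2353 untreated, for a transcript of 3709 bases, give a level between 1.53 and 1.76-fold lower. For the annotated transcript of 718 bases, the counting interval runs from 1.37 to 1.97-fold lower and crosses the 1.5-fold limit. By its level Timp2 passed the 1.5-fold limit but not the 2-fold limit, and 1210 tested genes had a lower ratio.

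Timp3, the matrix-bound inhibitor, had 66.2 FPKM in the probucol sample against 53.0 FPKM in the untreated sample. Its log2 ratio of 0.32 lay within the 1.5-fold limits and turned to -0.14 when ratios were centred on cardiomyocyte markers. The estimated 2002 fragments with probucol against 1788 untreated, for a transcript of 4722 bases, give a ratio between 1.17 and 1.33. For the annotated transcript of 352 bases, 63 fragments with probucol against 56 untreated give an interval from 0.862 to 1.83, which covers equal levels. For Timp2, Timp3 and Timp4 the longer of the transcripts named here is linked to a RefSeq entry and the shorter is not. Which transcript was counted is not known.

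Reck, the membrane inhibitor, had 1.94 FPKM in the probucol sample against 2.16 FPKM in the untreated sample, a log2 ratio of -0.12. These levels rest on 55 fragments with probucol and 68 untreated, whose ratio has a counting interval from 0.621 to 1.31, and a difference was not detectable here. In both libraries Reck was far below each of the Timp genes, with Timp2 at 28.2 times its level in the probucol sample and 41.7 times in the untreated sample.

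**Figure D2:**
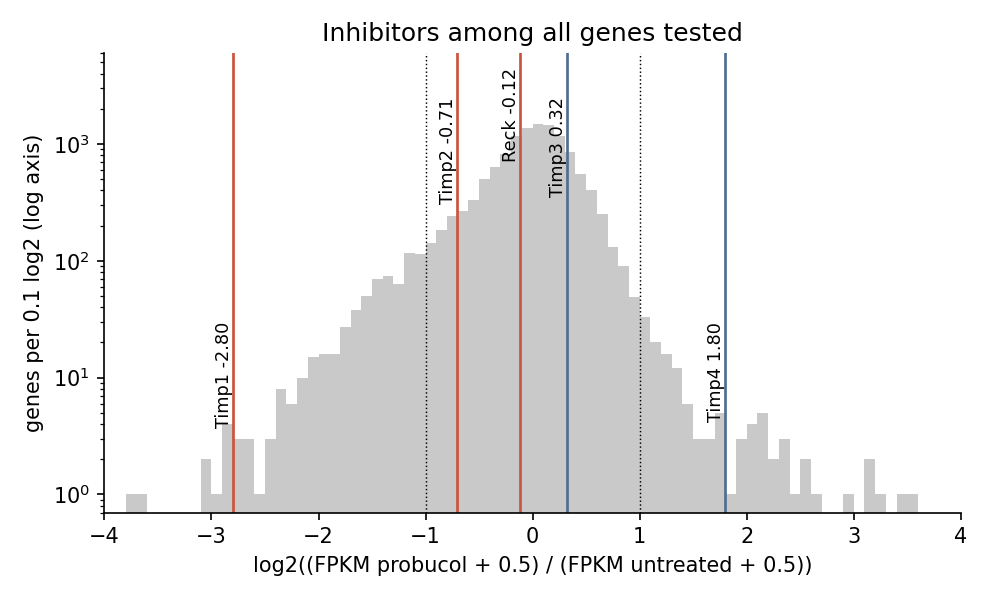
Number of genes per 0.1 of log2 ratio (log axis) among the 12882 tested genes, with lines at the 5 inhibitors and dotted lines at 2-fold; 30 genes lie outside the plotted range. Timp1 at -2.80 lies near the lower end, Timp4 at 1.80 near the upper end, and Timp2, Reck and Timp3 lie between the dotted lines.

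The order of the levels differed between the libraries. In the probucol sample it ran Timp3, Timp4, Timp2, Timp1 and Reck from high to low, and in the untreated sample Timp1, Timp2, Timp3, Timp4 and Reck. In the probucol sample Timp3, Timp4 and Timp2 lay close together, between 54.8 and 66.2 FPKM. With no replicates, no spread is at hand to separate such neighbours.

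Shares within a library do not depend on how the libraries were scaled to each other. Timp1 made up 11.7% of the summed FPKM of the 4 Timp genes in the probucol sample and 51.4% in the untreated sample. Timp4 made up 28.6% in the probucol sample and 4.97% in the untreated sample. Timp3 held 32.7% in the probucol sample against 16.2% in the untreated sample. The share of Timp2 was nearly equal, 27.0% in the probucol sample and 27.4% in the untreated sample. The quotient of Timp1 over Timp4 was 0.410 in the probucol sample and 10.4 in the untreated sample, 25.3 times higher in the untreated sample. Relative to Timp2, Timp3 stood at 1.21 times its level in the probucol sample and 0.589 times in the untreated sample.

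The sum of the 4 Timp genes was 203 FPKM in the probucol sample and 328 FPKM in the untreated sample. Without Timp1, the sum of Timp2, Timp3 and Timp4 was 179 FPKM in the probucol sample and 159 FPKM in the untreated sample. The lower total of the probucol sample thus lay with Timp1 and, to a smaller extent, Timp2, against higher FPKM of Timp4 and Timp3; the direction of Timp3 turns on the scaling, as given above.

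**Figure D3:**
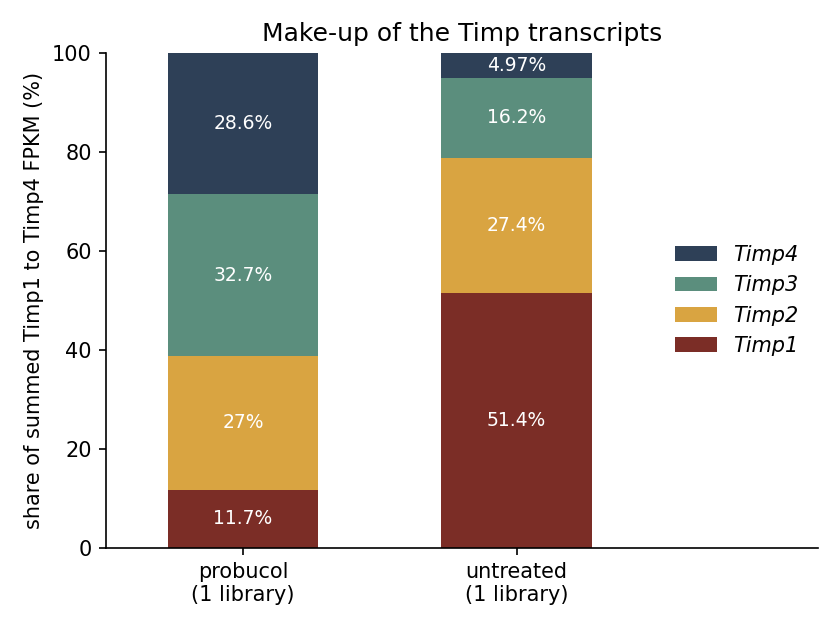
Share in percent of each Timp gene in the summed FPKM of Timp1 to Timp4, for the probucol sample (left) and the untreated sample (right). Timp1 takes 11.7% with probucol and 51.4% untreated, Timp4 takes 28.6% with probucol and 4.97% untreated, and Timp2 takes 27.0% with probucol and 27.4% untreated.

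The targets of the inhibitors were described by lists of 16 secreted and 7 membrane-bound MMPs. These lists were chosen with earlier results of these data known. Of 10 measured secreted MMPs, 6 were lower by 1.5-fold or more in the probucol sample and 1 higher. Over all tested genes 12.0% were lower and 5.52% higher by this limit. The median log2 ratio of the list was -1.08 beside 0.01 for all tested genes. Mmp12, the macrophage elastase, had 9.89 FPKM in the probucol sample against 52.9 FPKM in the untreated sample (log2 ratio -2.36). Mmp3, a stromelysin that cuts many matrix proteins, had 3.38 FPKM in the probucol sample against 18.0 FPKM in the untreated sample (-2.25), from 36 fragments with probucol and 214 untreated. Mmp27 had 0.206 FPKM in the probucol sample against 4.07 FPKM in the untreated sample (-2.69), which rest on 2 fragments with probucol and 44 untreated. Also lower were Mmp13, from 1 fragment with probucol and 21 untreated, and Mmp8, from 6 and 21, both named after their values were seen. With a filter at a mean of 1 FPKM, 4 secreted MMPs were lower by 1.5-fold or more. The member that was higher, Mmp28, had 1.74 FPKM in the probucol sample against 0.520 FPKM in the untreated sample, and was named after its value was seen. Mmp1a, Mmp1b, Mmp10, Mmp20 and Mmp21 were listed at 0 in both libraries.

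Of 4 measured membrane MMPs, 1 was lower by 1.5-fold or more and 0 higher, with a median of -0.19. Over all tested genes the shares were 12.0% lower and 5.52% higher. Mmp14, the activator of Mmp2, had 13.7 FPKM in the probucol sample against 25.7 FPKM in the untreated sample (log2 ratio -0.89). Mmp23 had a log2 ratio of -0.48 and Mmp15 had 0.22.

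Inhibitor and target levels were set side by side for pairs known from biochemistry, chosen after their values were seen. Mmp2, a gelatinase, had 32.2 FPKM in the probucol sample against 44.6 FPKM in the untreated sample, so that Timp2 stood at 1.70 times Mmp2 in the probucol sample and 2.02 times in the untreated sample. The quotient of Timp2 over Mmp14 was 1.14 times as high in the probucol sample as in the untreated sample. Mmp9, the gelatinase that Timp1 binds, had 0.604 FPKM in the probucol sample against 1.08 FPKM in the untreated sample, from 12 fragments with probucol and 24 untreated, a counting interval of the ratio from 0.254 to 1.16. At this depth no difference of Mmp9 was detectable.

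The sum of all listed MMPs was 103 FPKM in the probucol sample and 193 FPKM in the untreated sample. The summed Timp level was 1.96 times that sum in the probucol sample and 1.70 times in the untreated sample. Against secreted MMPs alone, the summed Timp level was 3.74 times in the probucol sample and 2.47 times in the untreated sample. These are quotients of transcript levels and say nothing of protein or activity.

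Among 7 measured ADAM proteases, 2 were lower by 1.5-fold or more and 0 higher, with a median log2 ratio of -0.33. Over all tested genes the shares were 12.0% lower and 5.52% higher. Adam8, a protease of leukocytes, had 2.88 FPKM in the probucol sample against 17.0 FPKM in the untreated sample (-2.38). Adam12 had 0.420 FPKM in the probucol sample against 1.27 FPKM in the untreated sample (-0.95), and passed the filter through the untreated sample. With a filter at a mean of 1 FPKM, 1 ADAM protease was lower by 1.5-fold or more. Adam15 had -0.38. The main ADAM target of Timp3, Adam17, which sheds tumour necrosis factor and was named after its value was seen, had 16.7 FPKM in the probucol sample against 19.7 FPKM in the untreated sample. Timp3 stood at 3.96 times Adam17 in the probucol sample and 2.69 times in the untreated sample. Of 12 measured ADAMTS proteases, 1 was lower by 1.5-fold or more and 0 were higher, near the share of 12.0% lower over all tested genes. The lower gene, the aggrecan-cutting enzyme Adamts4, had 0.948 FPKM in the probucol sample against 3.48 FPKM in the untreated sample (log2 ratio -1.46). Adamts12 (-0.50) and Adamts5 (-0.49) followed, and the median was -0.30. Scaled to the same summed FPKM 3 ADAMTS genes were lower by this limit, and centred on cardiomyocyte markers 7 ADAMTS and 6 ADAM genes were. These scalings take the median of all tested genes to -0.12 and -0.45. Among all tested genes, those lower by 2-fold or more then numbered 824 and 1678, against 662 without rescaling.

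Of 7 measured genes for proteins that bind a TIMP without being its target, 2 were lower by 1.5-fold or more and 0 higher. The median was -0.37, and over all tested genes 12.0% were lower and 5.52% higher by this limit. Lrp1, an endocytic receptor that clears TIMPs and MMPs, had 10.9 FPKM in the probucol sample against 19.8 FPKM in the untreated sample (-0.83). Cd63, a tetraspanin that binds Timp1 at the cell surface, had 246 FPKM in the probucol sample against 433 FPKM in the untreated sample (-0.82). Efemp1, a matrix protein that binds Timp3, had -0.47. Centred on cardiomyocyte markers, 6 of the 7 were lower by 1.5-fold or more and 2 by 2-fold or more. This centring takes the median of all tested genes to -0.45. By the 2-fold limit, 1678 of all tested genes were then lower, against 662 without rescaling. The share of all genes past 1.5-fold under this centring was not computed.

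The co-receptor genes around Reck showed 0 of 4 measured members past 1.5-fold, with a median of 0.12. Over all tested genes 12.0% were lower and 5.52% higher by this limit. Lrp5 had a log2 ratio of 0.29, Adgra2, the partner of Reck in Wnt7 signalling, had 0.25, and Fzd4 had -0.08. Wnt7a had 0.0503 FPKM in the probucol sample and was listed at 0 in the untreated sample, and Wnt7b was listed at 0 in both.

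Genes that share a fold with the TIMPs, and inhibitors of other proteases, were examined in a pair of lists. Of 10 measured genes whose proteins carry a netrin-like module, the fold of the inhibitory TIMP domain, 3 were lower by 1.5-fold or more and 0 higher, with a median of -0.33. They were the complement gene C4b (-1.47), the Wnt antagonist Frzb (-1.21) and Pcolce, the enhancer of procollagen processing (-0.91). Of 11 measured inhibitors of serine and cysteine proteases, 6 were lower by 1.5-fold or more and 0 higher, with a median of -0.61. For both lists the shares over all tested genes were 12.0% lower and 5.52% higher by this limit. Serpina3n, an acute-phase serpin, had 34.7 FPKM in the probucol sample against 161 FPKM in the untreated sample (-2.19). Tfpi2 had -1.16.

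Of 7 measured cytokines known to induce Timp1 and their receptors, 3 were lower by 1.5-fold or more and 0 higher, with a median of -0.36. Over all tested genes the shares were 12.0% lower and 5.52% higher. Il1b had 2.80 FPKM in the probucol sample against 4.91 FPKM in the untreated sample (-0.71), from 22 fragments with probucol and 42 untreated, a counting interval of the ratio from 0.332 to just over 1. Osm, the gene of oncostatin M, rested on 6 fragments with probucol and 16 untreated, a counting interval of the ratio from 0.134 to 1.13, and Tgfb1 had a log2 ratio of -0.62. With a filter at a mean of 1 FPKM, which Osm does not pass, 2 genes of this list were lower by 1.5-fold or more.

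**Figure D4:**
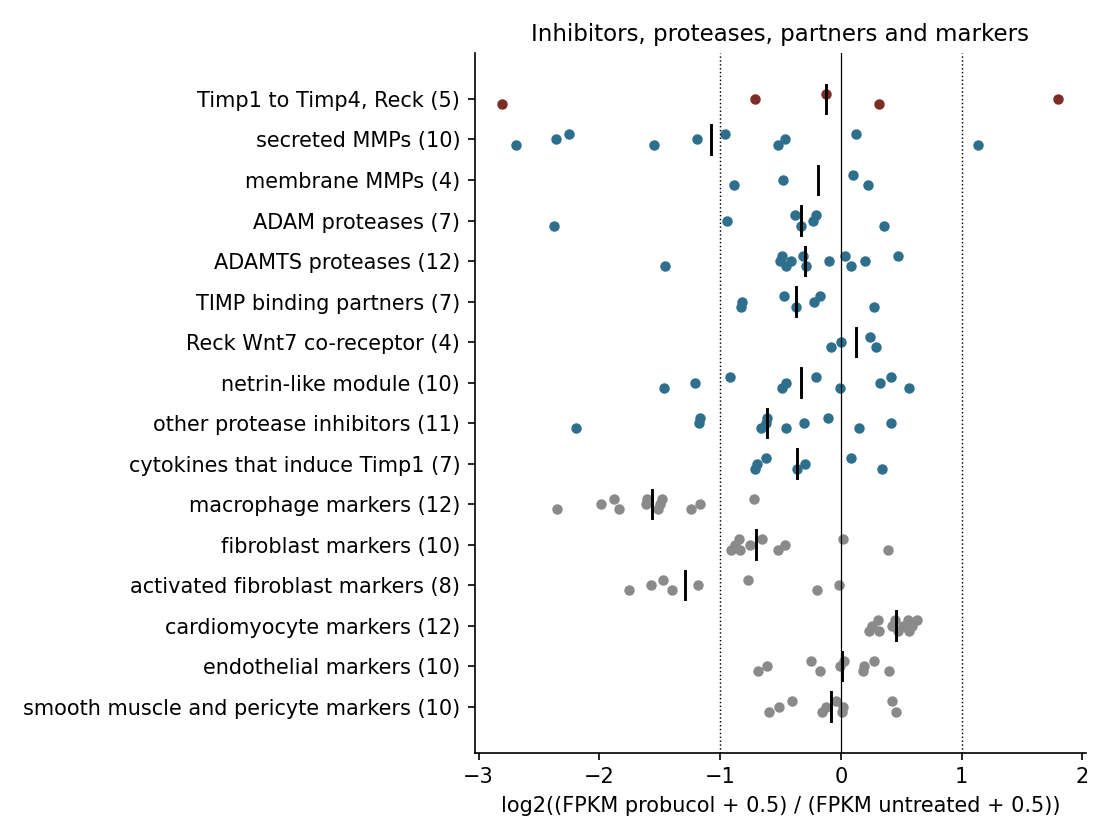
Log2 ratio of every measured gene (dots) in each list, with the number measured in brackets, a black bar at the median and dotted lines at 2-fold. The inhibitors span -2.80 to 1.80, macrophage markers lie below 0 with a median of -1.56, and cardiomyocyte markers above 0 with a median of 0.46.

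Markers of cell types that make or surround these inhibitors differed between the libraries as well. Each of the 12 macrophage markers was lower by 1.5-fold or more in the probucol sample, with a median of -1.56 and summed levels of 1111 FPKM there against 3666 FPKM in the untreated sample. Lyz2, the lysozyme of myeloid cells, had 497 FPKM in the probucol sample against 1831 FPKM in the untreated sample. The complement genes C1qb and C1qc had log2 ratios of -1.52 and -1.61. Of 8 activated fibroblast markers, 6 were lower by 1.5-fold or more, with a median of -1.29 and sums of 159 FPKM in the probucol sample against 307 FPKM in the untreated sample. Postn had -1.18, Fn1 -1.40 and Acta2, the smooth muscle actin of myofibroblasts, -0.20. Of 10 fibroblast markers, 6 passed the same limit as lower, and the median was -0.70 beside sums of 1419 FPKM in the probucol sample and 1803 FPKM in the untreated sample. The most abundant were Dcn (-0.52), Gsn (0.39) and Dpt (-0.75). Over all tested genes 12.0% were lower by 1.5-fold or more. None of the markers in these 3 lists was listed at 0 in both libraries. Their part in the lower Timp1 and Timp2 values was not tested.

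All 12 cardiomyocyte markers lay above 0, between 0.24 and 0.63, and 2 were higher by 1.5-fold or more, beside 5.52% of all tested genes. Myl2 had a log2 ratio of 0.59, Myl3 0.56 and Actc1 0.26. The part of heart muscle content in the higher Timp4 value was not tested. Endothelial markers had a median of 0.01 (sums of 399 FPKM in the probucol sample against 412 FPKM in the untreated sample, 2 of 10 past 1.5-fold lower), with Pecam1 at -0.24, Cdh5 at 0.03 and Egfl7 at -0.17. Smooth muscle and pericyte markers had a median of -0.08 (sums of 325 FPKM with probucol against 378 FPKM untreated, 1 of 10 past 1.5-fold lower), with Rgs5 at -0.41, Abcc9 at 0.43 and Tagln at -0.12. Beside these 2 lists, 12.0% of all tested genes were lower by 1.5-fold or more.

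The remaining marker lists were mixed or near detection. Of 8 measured neutrophil markers 5 were lower and 2 higher by the 1.5-fold limit, beside 12.0% lower and 5.52% higher over all tested genes. The median of these markers was -0.88. The most abundant were S100a8 (0.49), S100a9 (0.61) and Retnlg (0.88), and the lowest, chosen after their values were seen, were Camp (-2.35) and Ngp (-1.54). Retnlg rests on 11 fragments with probucol and 6 untreated, a counting interval of the ratio from 0.693 to 6.73, and Camp was listed at 0 in the probucol sample. Camp rests on 0 fragments with probucol and 8 untreated, Ngp on 1 and 11, and Mmp8 on 6 and 21. Camp, Ngp and Mmp8 were below 0.5 FPKM in the probucol sample and passed the filter through the untreated sample. The count of lower markers and the median lean on these low genes. The list had sums of 146 FPKM in the probucol sample against 107 FPKM in the untreated sample. Mmp8 stands in this list and among the secreted MMPs. Schwann and nerve markers summed to 5.26 FPKM in the probucol sample against 8.96 FPKM in the untreated sample, and lymphocyte markers to 2.15 FPKM with probucol against 4.60 FPKM untreated. Apart from Fabp4, which endothelial cells of the heart also express (1829 FPKM in the probucol sample against 2279 FPKM in the untreated sample), adipocyte markers were below 1 FPKM in both libraries.

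Likeness to Timp1 and Timp4 was measured as the distance between log2 ratios, over 2 libraries, among 7800 named genes with a mean of at least 5 FPKM. Nearest to Timp1 were the chemokine gene Ccl8 (-2.77), Sprr1a (-2.86), the heme oxygenase Hmox1 (-2.96) and the macrophage receptor Trem2 (-2.53), and 3 genes lay within 0.2. Nearest to Timp4 were the cell cycle inhibitor Cdkn1c (1.71), Gdpd3 (1.70), Lrrc4b (2.05) and the platelet gene Ppbp (2.07), and 2 genes lay within 0.2. Cdkn1c had 8.10 FPKM with probucol against 2.13 untreated, Lrrc4b 12.8 against 2.72 and Ppbp 13.9 against 2.92. They met the limit on the mean through the probucol sample, and Sprr1a, at 1.54 against 14.3 FPKM, through the untreated sample. The other genes named here were above 5 FPKM in both libraries. Nearness repeats the ratios that prompted the choice of members, and a relation to them was not tested. Of genes with a mean of at least 5 FPKM, 449 lay within 0.2 of Timp2, 2777 of Timp3 and 2959 of Reck.

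**Figure D5:**
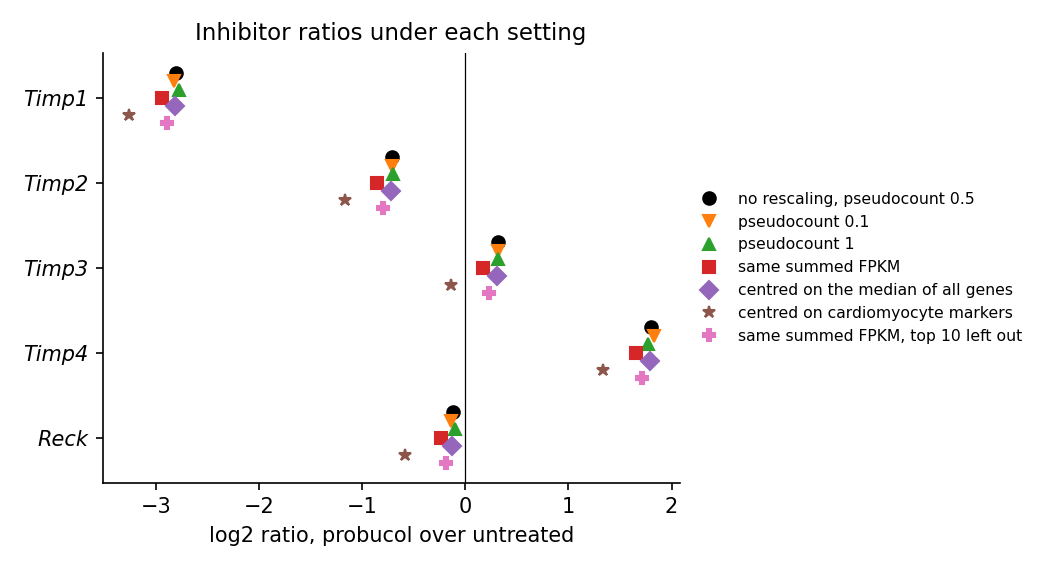
Log2 ratio of each inhibitor, probucol over untreated, under each pseudocount and scaling (symbols). Timp1 and Timp2 lie below 0 and Timp4 above 0 under all 7 settings, and Timp3 crosses 0 only when centred on cardiomyocyte markers, at -0.14.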

How the data were processed

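RNA sequencing of 2 mouse heart libraries was analysed, 1 treated with probucol and 1 untreated, grouped by the treatment label. Per the labels' protocols, RNA extraction used a miRNeasy Mini kit and library preparation a TruSeq kit for stranded mRNA. The authors deposited FPKM, 1 value per gene symbol and library. Per the submitters' processing notes, TopHat2 2.1.1, Bowtie2, Cuffdiff 2.2.1 and the build mm10 were used, without roles; the sources used here give neither the annotation nor the scaling between libraries. If FPKM were scaled to all mapped fragments, a few abundant genes would lower the values of all others. The 10 most abundant genes held 17.2% of the probucol and 14.4% of the untreated total.

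Log2 ratios with a pseudocount of 0.5 were computed with Python 3.11.15 and pandas 2.3.3 for genes with a mean of at least 0.5 FPKM; they understate differences of low genes. Calls were at 2-fold and 1.5-fold, with no p-value. Fragment numbers were estimated from the steps of low FPKM: of 2545 genes under 1 FPKM in both libraries, 424 had the ratio 1.12 of equal fragment numbers within 0.3%. With 210 bases subtracted from the transcript length (GENCODE M21), 1 fragment in 1 kb was worth 0.149 FPKM in the probucol and 0.134 FPKM in the untreated library. Fragment ratios have exact binomial 95% intervals (scipy 1.17.1), which cover counting error only.

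Members and gene lists were chosen with earlier results of these data known. Named genes were the members, the 3 largest ratios of each pathway list, the 3 most abundant markers of each list and the 4 nearest genes to Timp1 and Timp4; others are said to be chosen after their values were seen. A gene that this rule takes is not reported here. Csta2, Cep295nl and Ly6g were not analysed here. The calls were tested on simulated libraries for the comparison of probucol with untreated over 12882 genes: 96% of 100 genes changed 4-fold and 35% of 100 changed 2-fold passed the 2-fold limit. Of unchanged genes, 0.103% passed it. The 1.5-fold limit was passed by 92% of the genes changed 2-fold and by 2.22% of unchanged genes. The simulation drew counting error alone, with the same effective length for every gene and no variation between animals or libraries. These rates are therefore not error rates of the calls in the real libraries. Alternatives were the pseudocount, scaling, filter, summed genes and bases subtracted.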

Additional observations from a re-analysis of the deposited data

How the results depend on the processing

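No paired analysis was possible because each group has 1 library, and for the same reason no library could be left out. Timp1 and Timp4 kept their direction and stayed past 2-fold, and Timp2 stayed lower and past 1.5-fold, under all 6 alternatives of pseudocount and scaling. Scaled to the same summed FPKM, which takes the median of all genes to -0.12, Timp2 had -0.85, Timp3 0.17 and Timp4 1.66. Centred on cardiomyocyte markers, which takes that median to -0.45, Timp1 had -3.26, Timp2 -1.17, Timp3 -0.14 and Timp4 1.34; the genes lower by 2-fold or more then numbered 1678 and those higher 54, against 662 and 138 without rescaling. With a pseudocount of 0.1, 229 genes were higher by 2-fold or more. Over all pathway lists together, 24 genes were lower by 1.5-fold or more and 12 lower by 2-fold or more, and 1 was higher by either limit. Over all tested genes 12.0% were lower and 5.52% higher by 1.5-fold or more, and 5.14% and 1.07% by 2-fold or more. The numbers measured are given list by list above. Centring on cardiomyocyte markers gave 48 and 24 lower and 0 higher by 2-fold or more. That centring also raised the number of lower genes among all tested genes, to 1678 by the 2-fold limit, and their share by the 1.5-fold limit was not computed. A pseudocount of 1 gave 0 higher by 2-fold or more, and 0.1 gave 2 higher by 1.5-fold or more. Counts of single lists stayed within 1.5 times in 264 of 288 alternatives. Many of the 264 are counts of 0 that stayed at 0, as in the Reck co-receptor list under every setting. The number therefore overstates how steady the counts above 0 were. Centred on cardiomyocyte markers, genes lower by 1.5-fold or more numbered 2 among membrane MMPs, 6 in the netrin-like list and 5 among cytokines, and by 2-fold or more 1, 2, 3 and 6 among membrane MMPs, ADAM proteases, cytokines and other protease inhibitors. Scaled to the same summed FPKM, 2 membrane MMPs and 5 netrin-like genes were lower by 1.5-fold or more. Without the filter, which adds genes near 0, 7.46% of all genes were lower by 1.5-fold or more and 3.64% higher, and 2.92% and 0.711% by the 2-fold limit. Against secreted MMPs only, the Timp sum stood at 3.74 times in the probucol library and 2.47 times in the untreated library. With 0 bases subtracted, the fragments of both libraries together were 1254 for Timp1, 3856 for Timp2, 3966 for Timp3 and 2804 for Timp4, and with 150 subtracted 1041 for Timp1, against 956, 3638, 3790 and 2698. With Reck added to the sum, Timp1 held 11.6% in the probucol sample and 51.1% in the untreated sample. Depth limits Reck, Mmp9, Mmp27, Osm, Il1b and Retnlg, among others.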
